A study of Mus musculus with 7 samples.

Results

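The proteasome genes described here are the rows of a transcript abundance table whose symbol is Psma, Psmb, Psmc, Psmd, Psme, Psmf or Psmg followed by a number. There were 48 such genes among the 54309 in the table. Of these, 46 had a mean of at least 1 TPM (an abundance that is corrected for transcript length and scaled to the same sum in every sample) and were tested. The values come from RNA sequencing of lumbar (L4 to L6) dorsal root ganglia, which hold the cell bodies of sensory neurons, of male C57bl/6 mice aged 6 to 8 weeks. In every animal the sciatic nerve had been injured, and the ganglia were taken 72 h later. In 4 samples injury was at ZT20 (Zeitgeber time, in hours since lights on), and in 3 samples it was at ZT8. The ganglia were dissociated with enzymes and enriched for neurons on an albumin gradient. No uninjured sample was analysed here, the ganglia of a group were taken at the ZT of their injury, and the labels do not say how many animals stand behind a sample, so p-values measure only the spread between these samples.

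The proteasome is the cell's main machine for degrading proteins tagged with ubiquitin. Its 20S core is a barrel of stacked alpha and beta rings with the cutting sites inside. The 19S particle caps the barrel, where a base of ATPases unfolds the substrate and a lid removes the ubiquitin chain. Interferon induces replacement catalytic subunits that form the immunoproteasome, which is known for producing peptides for MHC class I, and alternative caps (the PA28 and PA200 activators) open the core without ubiquitin. In injured neurons, local protein degradation by the ubiquitin-proteasome system is known to accompany the formation of new growth cones.

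Facts of the libraries that touch these results are as follows. Between 24192 and 25238 genes were above 0 TPM in the ZT20 samples, and 22541, 18297 and 22973 in ZT8 replicates 1, 2 and 3, so ZT8 replicate 2 stood apart. All samples are labelled male, but the summed TPM of 4 Y-linked genes was 0.0162 and 0.00868 in ZT20 replicates 3 and 4 against 33.1 to 84.6 in the other 5 samples. The library identifiers were numbers at ZT20 and letters at ZT8, so any batch they stand for cannot be told apart from the group. Neuronal markers were present in all samples, with a sum over 16 genes of 23866 to 30049 TPM at ZT20 and 19339.8 to 25846 TPM at ZT8. Of the 16, 5 were called higher at ZT20, against 12.8% of all tested genes. Those 5 have long transcripts (3994 to 9840 nt). In the length groups that hold them, described further on, 13.5% to 36.5% of all genes were called higher. Satellite glia markers (8 genes) summed to 7604 to 9308 TPM at ZT20 and 12839.6 to 15598 TPM at ZT8, and 3 of the 8 were called lower at ZT20, against 3.61% of all tested genes. Apoe made up most of that sum, at 6261 to 7615 TPM at ZT20 and 10623 to 13557 TPM at ZT8. Of the 8 genes 4 had higher and 4 had lower values at ZT20 (median log2 difference −0.16). Neutrophil markers (6 genes) summed to 4617, 1143, 781 and 1003 TPM in ZT20 replicates 1 to 4 and to 301, 1001 and 107 TPM in ZT8 replicates 1 to 3, and 2 of the 6 were called higher at ZT20. The sum thus stood apart in ZT20 replicate 1. Of the other ZT20 samples, replicate 3 lay within the ZT8 range, and replicates 2 and 4 lay above it, replicate 4 by a small margin. All 6 neutrophil markers had higher values at ZT20 (median log2 difference 2.18). Erythroid markers (5 genes) summed to 2369 to 6679 TPM at ZT20 and to 1603, 9534 and 951 TPM in ZT8 replicates 1 to 3, so ZT8 replicate 2 was highest. Limma called 0 of these 5. The part of these cell types in the proteasome results was not tested beyond the fit with a marker score given below, and in ganglion samples fewer cells of a type and less RNA per cell cannot be told apart.

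Proteasome transcripts were less abundant at ZT20 than at ZT8. Together the 48 genes held 1.18% to 1.39% of all TPM in the ZT20 samples and 1.55% to 1.77% in the ZT8 samples, and these ranges do not overlap. In the comparison of single genes (limma on log2(TPM + 1), Benjamini-Hochberg adjustment over all 14800 tested genes, adjusted p under 0.05), 13 proteasome genes were lower at ZT20 and 1, Psme4, was higher. Among all tested genes 3.61% were called lower and 12.8% higher, and among the 46 tested proteasome genes these shares were 28.3% and 2.17%. The difference, ZT20 minus ZT8 on the log2(TPM + 1) scale, had a median of −0.27 over the 46 genes and of 0.23 over all tested genes. It was negative for 39 of the 46 and ran from −1.62 for Psmb8 to 1.14 for Psme4. The values of the groups did not overlap for 20 proteasome genes that were lower at ZT20 and for 3 that were higher, whereas 8.72% and 24.5% of all tested genes did so in those directions (33.2% in either). The values of all 14 called genes were free of overlap.

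The number of calls depended on the samples. Without ZT20 replicate 1, 3 or 4 in turn, 6, 4 and 5 proteasome genes (13.0%, 8.70% and 10.9%) were called, against 7.67%, 4.90% and 5.79% of all genes, and all 14 kept their direction in each of these fits. Without both ZT20 replicates whose Y-linked transcripts were near 0, limma called 0 proteasome genes and 0 of all genes, all 14 again kept their direction, and 14 proteasome genes (30.4%) had an unadjusted p under 0.05, against 16.2% of all genes. In that fit 37 of the 46 differences were negative, their median was −0.24, and the differences were −1.48 for Psmb8, −0.87 for Psme1, −0.63 for Psma6 and 1.22 for Psme4. Without ZT8 replicate 2, 13 of the 14 were called again. Over the 7 fits that each left out 1 sample, Psma6, Psmd14, Psme1 and Psme4 were called in all 7, Psmd6 in 6, Psmb5 in 5, Psma3 and Psmd13 in 4, Psma7, Psmb10 and Psmc3 in 3, and Psmb6, Psmb8 and Psmd10 in 2. When a score of neuronal against other markers was a covariate, limma also called 0 genes of either kind, 12 proteasome genes (26.1%) had an unadjusted p under 0.05, against 16.4% of all genes, and the median over the proteasome genes was −0.31. Median-ratio scaling moved the median of all genes from 0.23 to 0.034, and with it 20 proteasome genes were called lower and 1 higher, against 7.84% and 7.62% of all genes. The 7 that it added were Psma1, Psmc4, Psmc5, Psmc6, Psmd4, Psmd8 and Psmg4. The plot of log2 differences by gene shows the proteasome genes grouped by role.

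**Figure D1:**
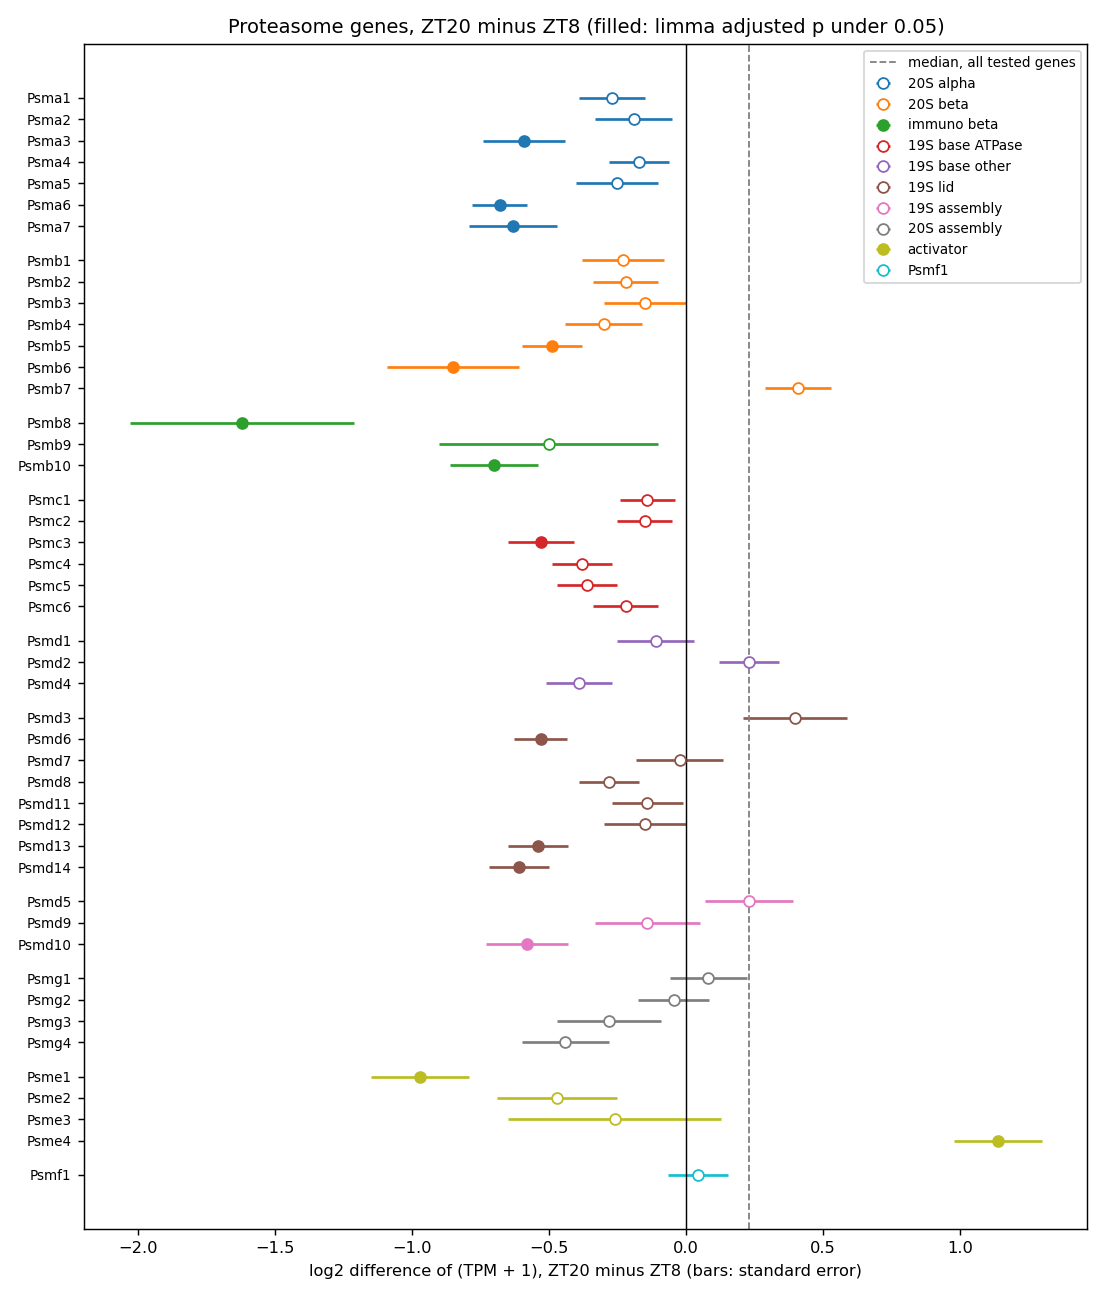
Log2 difference of (TPM + 1), ZT20 minus ZT8, for the 46 tested proteasome genes, grouped by role. Points are limma estimates with their standard errors, filled where the adjusted p was under 0.05, and the dashed line is the median of all tested genes at 0.23; 39 of the 46 points lie below 0 and Psme4 at 1.14 lies farthest above it.

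The alpha subunits form the outer rings of the core and its gate. All 7 ubiquitous alpha genes had lower values at ZT20 (median log2 difference −0.27), and 3 of them, Psma3, Psma6 and Psma7, were called. Psma6 (ENSMUSG00000021024) was at 233, 267, 241 and 228 TPM at ZT20 (replicates 1 to 4, an order kept throughout) and at 363, 405 and 393 TPM at ZT8 (replicates 1 to 3). Every ZT8 sample lay above every ZT20 sample, and the means, 242 ± 17.3 TPM (SD, n = 4) and 387 ± 21.7 TPM (SD, n = 3), differed by more than either SD. The log2 difference was −0.68 ± 0.10 (SE, limma adjusted p = 0.00733), and it stayed under the threshold whichever sample was left out (adjusted p up to 0.0368).

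Psma7 (ENSMUSG00000027566) had the highest level of the alpha genes, at 1024, 1117, 855 and 832 TPM at ZT20 and 1409, 1796 and 1264 TPM at ZT8. Again the groups were separate, with ZT8 replicate 2 highest, and the log2 difference was −0.63 ± 0.16 (SE, limma adjusted p = 0.0310). Psma3 (ENSMUSG00000060073) was at 247, 299, 271 and 269 TPM at ZT20 and at 358, 520.4 and 364 TPM at ZT8, separate again, with a log2 difference of −0.59 (limma adjusted p = 0.0338). The other 4, Psma1, Psma2, Psma4 and Psma5, had differences of −0.27, −0.19, −0.17 and −0.25 and did not pass. Psma4, the least different, was at 171, 171, 169 and 158 TPM at ZT20 and at 176, 183 and 209 TPM at ZT8. Psma2, the least abundant, was at 147, 158, 124 and 121 TPM at ZT20 and at 145, 177 and 147 TPM at ZT8. The groups were just separate for Psma4 and overlapped for Psma2. Psma8, a testis-specific alpha subunit related to Psma7, was at 1.82, 0.0819, 0.644 and 0.431 TPM at ZT20 and was listed at 0, 0 and 0.0242 TPM at ZT8, under the limit for testing.

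The beta rings carry the cutting sites, of which the constitutive core has those of Psmb6 (caspase-like), Psmb7 (trypsin-like) and Psmb5 (chymotrypsin-like). Of these 3, Psmb6 and Psmb5 were called lower at ZT20, and Psmb7, which was not called, was the only ubiquitous core gene with a higher value there. Psmb6 (ENSMUSG00000018286), the most abundant proteasome transcript, was at 1158, 1588, 954 and 1005 TPM at ZT20 and 1848, 2989.9 and 1622 TPM at ZT8. The highest ZT20 sample came within a small distance of the lowest ZT8 sample without reaching it. The log2 difference was −0.85 ± 0.24 (SE, limma adjusted p = 0.0464), which did not pass once length and GC content were corrected for (−0.76, adjusted p = 0.0599).

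Psmb5 (ENSMUSG00000022193) was at 352, 335, 312 and 304 TPM at ZT20 and at 445, 509.6 and 419 TPM at ZT8, so the groups were separate, and the microRNA gene Mir686 overlaps its exons on the same strand. The log2 difference was −0.49 ± 0.11 (SE, limma adjusted p = 0.0237). Psmb7 (ENSMUSG00000026750) was at 309, 285, 265 and 248 TPM at ZT20 and lower, at 217, 184 and 225 TPM, at ZT8. Its groups were separate too, in the opposite direction, but the log2 difference of 0.41 (standard error 0.12) did not pass (limma adjusted p = 0.0563). Median-ratio scaling gave 0.17 for it (adjusted p = 0.383) and the length and GC correction 0.31 (adjusted p = 0.149). It passed under quantile normalization (0.43, adjusted p = 0.0435), without mitochondrially encoded genes (adjusted p = 0.0479) and at a minimum mean of 5 TPM (adjusted p = 0.0483).

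The structural beta subunits Psmb1, Psmb2, Psmb3 and Psmb4 had log2 differences of −0.23, −0.22, −0.15 and −0.30, and none passed. Their values overlapped between the groups, which sets them apart from Psmb5 and Psmb6 only by description, since the difference between subunits was not tested. Levels of the subunits that share the core in equal number were unequal as transcripts. Over the 14 constitutive core genes the coefficient of variation of mean TPM was 72.3% at ZT20 and 95.3% at ZT8, with Psmb6 and Psma7 at the top and Psma2 and Psma4 at the bottom. Over the 17 subunits of the 19S particle whose symbols begin with Psmc or Psmd it was 40.3% and 43.4%, which leaves out Adrm1 and the scarcer Sem1.

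**Figure D2:**
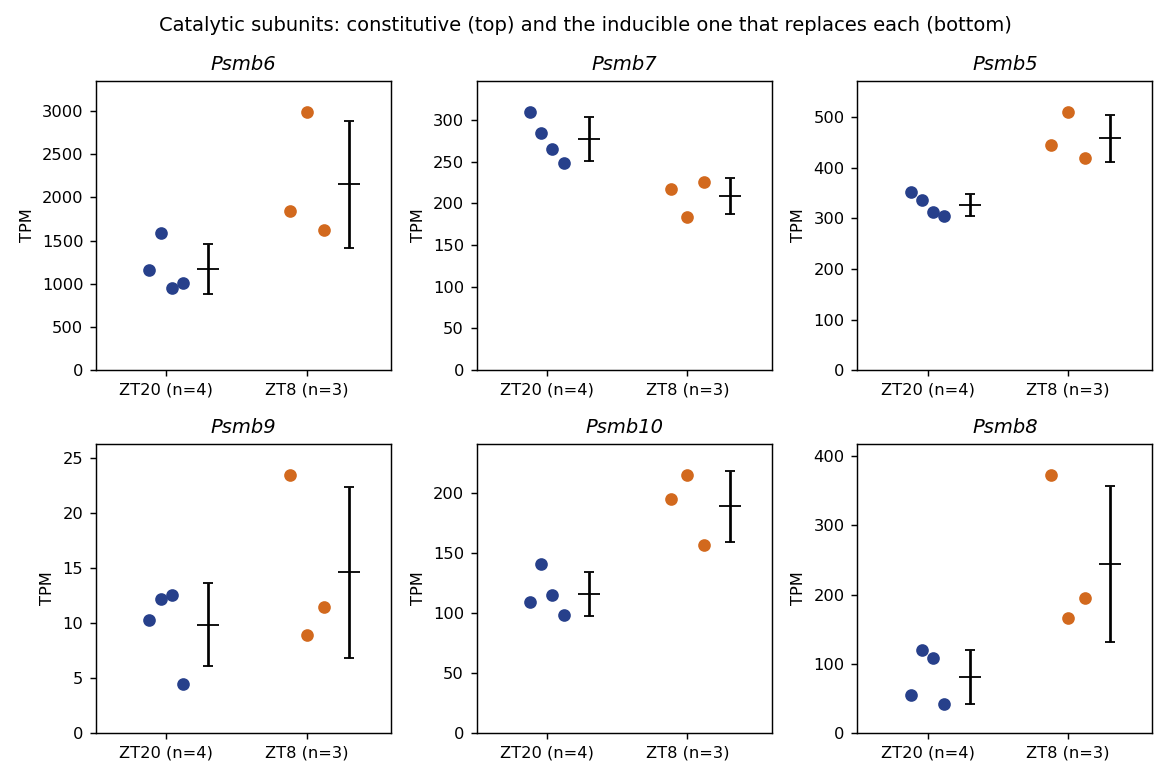
TPM of the 6 catalytic subunits in each sample, with ZT20 (n = 4) in blue and ZT8 (n = 3) in orange; the bars to the right are mean and SD, and each axis starts at 0. Psmb6, Psmb5, Psmb10 and Psmb8 are lower in every ZT20 sample than in any ZT8 sample, Psmb7 is higher, and Psmb9 overlaps.

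Of the inducible catalytic subunits, Psmb8 and Psmb10 were called lower at ZT20, and Psmb9 was not. The difference of Psmb8 was the most negative of all 46 tested proteasome genes. Psmb8 (ENSMUSG00000024338), which takes the place of Psmb5, was at 55.3, 120.1, 108 and 41.1 TPM at ZT20 and at 373, 166 and 194 TPM at ZT8. ZT8 replicate 1 was far above the other samples, the groups did not overlap, and the means of 81.2 ± 38.8 TPM (SD, n = 4) and 244 ± 112 TPM (SD, n = 3) differed 3.01-fold. The log2 difference was −1.62 ± 0.41 (SE, limma adjusted p = 0.0330), and it passed in 2 of the 7 fits that each left out 1 sample (adjusted p up to 0.0836, log2 difference −1.85 to −1.27).

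Psmb10 (ENSMUSG00000031897), the counterpart of Psmb7, was at 109, 141, 115 and 98.2 TPM at ZT20 and at 194, 215 and 157 TPM at ZT8. All ZT8 samples were above all ZT20 samples, with a log2 difference of −0.70 and a standard error of 0.16 (limma adjusted p = 0.0235). It passed in 3 of the 7 fits that left out 1 sample. Psmb9 (ENSMUSG00000096727), the counterpart of Psmb6, was scarce, at 10.2, 12.2, 12.5 and 4.43 TPM at ZT20 and 23.5, 8.93 and 11.5 TPM at ZT8. The ranges overlapped and the log2 difference of −0.50 did not pass (limma adjusted p = 0.404). Its difference ran from −0.77 to −0.12 over the fits that left out 1 sample, and was smallest without ZT8 replicate 1. In the GENCODE annotation exons of Psmb8, Psmb9 and Psmb7 overlap those of Gm20496, Tap1 and Nek6 on the opposite strand, so the split of reads between these genes is uncertain. Psmb11, the thymus-specific catalytic subunit, reached at most 0.324 TPM in any sample and was not tested.

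Markers of immune cells, which express these subunits at high levels, were read beside them. Macrophage markers (11 genes) summed to 223, 241, 180.1 and 247 TPM in ZT20 replicates 1 to 4 and to 539, 239 and 223 TPM in ZT8 replicates 1 to 3. Of the 11, C1qa was called lower and Mrc1 higher at ZT20. T and NK cell markers (9 genes) summed to 37.8, 50.1, 68.1 and 15.6 TPM at ZT20 and to 126, 58.1 and 37.5 TPM at ZT8, with Gzma called lower among 8 tested. B and plasma cell markers (9 genes) summed to 271, 493, 481 and 361 TPM at ZT20 and to 947, 503 and 649 TPM at ZT8, with Mzb1 called lower. All 3 sums were highest in ZT8 replicate 1, the sample with the highest Psmb8. In ZT20 replicate 4, the sample with the lowest Psmb8, the T and NK cell sum was the lowest of all samples and the macrophage sum was the highest at ZT20. The B and plasma cell sums did not overlap between the groups, as for Psmb8, and at ZT20 both were higher in replicates 2 and 3 than in replicates 1 and 4. This pattern was that of Jchain, at 10.2, 176, 157 and 4.18 TPM at ZT20 and 560, 195 and 317 TPM at ZT8 (limma adjusted p = 0.102). Xbp1 and Sdc1, the next most abundant of the 9, overlapped between the groups (log2 differences 0.044 and −0.0047). None of the immune cell markers was at 0 in every sample, and their part in the immunoproteasome values was not tested.

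To relate each inducible subunit to the one it replaces, the log2 ratio of their (TPM + 1) values was taken within each sample, on which scaling between samples has little effect. For Psmb10 over Psmb7 the ratio was −1.49, −1.01, −1.20 and −1.33 at ZT20 and −0.16, 0.22 and −0.52 at ZT8. Psmb10 thus stood at 35.3% to 49.5% of the Psmb7 level at ZT20 and at 69.6% to 117% at ZT8. The difference of −1.11 had p = 0.0286 by exact permutation over the 35 possible arrangements (two-sided), the smallest this design can give, and 0.0857 after adjustment over the 3 ratios. For Psmb8 over Psmb5 the mean ratio at ZT20 was −2.12 ± 0.73 (SD, n = 4), and that at ZT8 was −0.99 ± 0.69 (SD, n = 3), with overlapping samples (exact p = 0.171, adjusted 0.257).

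The third ratio, Psmb9 over Psmb6, averaged −6.82 ± 0.58 (SD, n = 4) at ZT20, against −7.17 ± 1.01 (SD, n = 3) at ZT8 (exact p = 0.543, adjusted 0.543). Its difference of 0.35 turned to −0.19 without ZT8 replicate 2, the sample with the highest Psmb6. With 1 sample left out the exact test cannot reach 0.05 for any of these ratios.

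**Figure D3:**
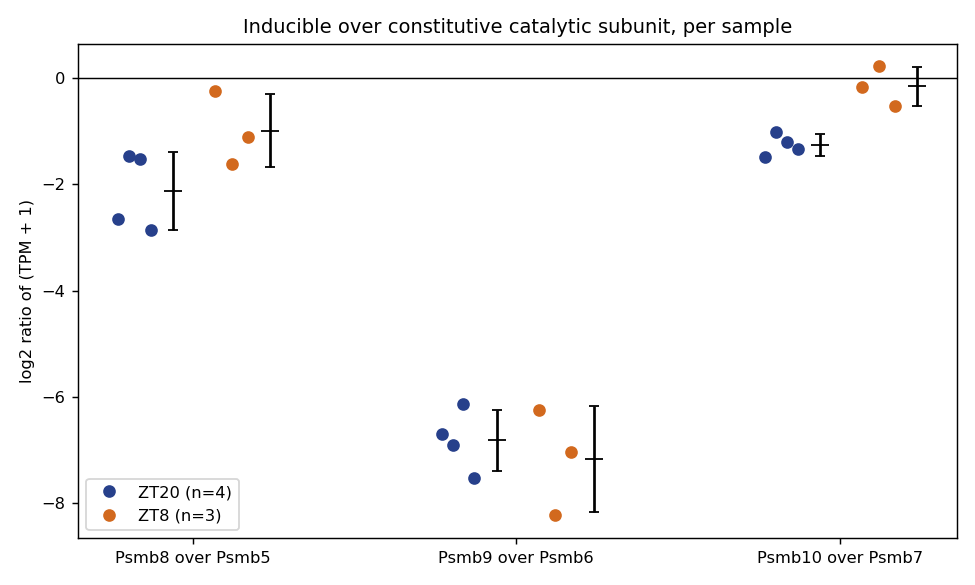
Log2 ratio of (TPM + 1) of each inducible catalytic subunit over the constitutive one it replaces, per sample, with mean and SD to the right (ZT20 n = 4, ZT8 n = 3). The groups are separate for Psmb10 over Psmb7, from −1.49 to −1.01 at ZT20 and from −0.52 to 0.22 at ZT8, and overlap for the other ratios.

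Promoters were read because most of these genes had lower values in the same group. RefSeq windows of 300 bases (250 before to 50 after the start, build GRCm38.p6) were found for 40 of the 48 genes, 43 windows in all. Shown are stretches around a match for 3 catalytic subunits that were called lower, each 5′ to 3′ on the gene's strand, with the matched letters in capitals. For Psmb5 the match is to TGACNNNGC, a loose form of the antioxidant response element through which NRF1 and NRF2 act, and starts 47 bases before the start site (chr14:54617996-54618082, minus strand). For Psmb8 it is to TTCNNNGAA, the letters of the gamma-interferon-activated site, 97 bases before it (chr17:34198058-34198146, plus strand). For Psmb10 it is to CACGTG, the E-box bound by CLOCK and BMAL1, 116 bases before it (chr8:105938463-105938548, minus strand).
Psmb5: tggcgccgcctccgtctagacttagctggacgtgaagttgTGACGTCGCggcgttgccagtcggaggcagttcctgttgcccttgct
Psmb8: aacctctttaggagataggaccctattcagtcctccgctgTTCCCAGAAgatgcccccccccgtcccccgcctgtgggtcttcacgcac
Psmb10: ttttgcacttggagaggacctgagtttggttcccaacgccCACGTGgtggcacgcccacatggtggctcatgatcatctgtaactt

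Matches were searched on both strands and compared with those in all 32851 windows. TGACNNNGC was in 14% of the proteasome windows and 12.4% of all, CACGTG in 9.3% and 7.15%, and TTCNNNGAA in 6.98% and 8.3%. TGACTCAGC, a stricter form of TGACNNNGC, was in 0 of the 43 proteasome windows and 0.454% of all. CCAAT, which was searched too, was in 32.6% and 37.4%. The interferon-stimulated response element (ISRE) was in 11.6% and 3.44%, that is in 5 of the 43 windows, those of Psmb3, Psmd4, Psmd9, Psme1 and Psmg4. Of the 12 genes called lower that had a window, TGACNNNGC was found in 2 (Psmb5 and Psmb6) and CACGTG, TTCNNNGAA and the ISRE in 1 each. Among 26 genes that were not called, those 4 motifs were found in 3, 3, 2 and 4. A match describes the letters only.

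In the base of the 19S particle the 6 ATPases, which unfold the substrate and thread it into the core, all had lower values at ZT20 (median log2 difference −0.29). Psmc3 alone was called. Psmc3 (ENSMUSG00000002102) was at 410.4, 456, 376 and 377 TPM at ZT20 and at 524, 608 and 629 TPM at ZT8, with separate groups and a log2 difference of −0.53 (standard error 0.12, limma adjusted p = 0.0208). Its exons overlap those of Slc39a13 on the opposite strand. Psmc4 and Psmc5 were close to the threshold, with log2 differences of −0.38 and −0.36, separate groups, and limma adjusted p-values of 0.0503 and 0.0589. Both passed under median-ratio scaling, with array weights and at a minimum mean of 5 TPM, and neither passed with the length and GC correction (adjusted p = 0.0711 and 0.0931) or quantile normalization (0.0980 and 0.156). Psmc5, the most abundant ATPase transcript, was at 603, 635, 562 and 554 TPM at ZT20 and at 723, 699 and 854 TPM at ZT8.

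The remaining ATPases, Psmc1, Psmc2 and Psmc6, had differences of −0.14, −0.15 and −0.22 with overlapping values. Psmc1 was at 502, 542, 515 and 539.8 TPM at ZT20 and at 553, 541 and 649 TPM at ZT8. Psmc6, the least abundant, was at 188, 209, 214 and 232 TPM at ZT20 and at 227, 232 and 276 TPM at ZT8. In both genes ZT8 replicate 3 was highest. Of the other base subunits Psmd4, a ubiquitin receptor, was at 408, 492, 381 and 384 TPM at ZT20 and at 503, 552 and 573 TPM at ZT8. Its groups were separate, but the difference of −0.39 did not pass (limma adjusted p = 0.0616). The scaffold Psmd1 differed by −0.11 and the scaffold Psmd2 by 0.23, and neither passed. Psmd1 was at 205, 211, 247 and 261 TPM at ZT20 and at 247, 214 and 289 TPM at ZT8, with overlap. Psmd2 was at 477, 509.9, 493 and 535 TPM at ZT20 and at 453, 386 and 455 TPM at ZT8, separate in the direction opposite to Psmd4, and that difference was −0.0057 under median-ratio scaling.

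The lid removes ubiquitin chains as substrates enter. Of its 8 genes with Psmd symbols, which leave out the lid subunit Sem1 described further on, 3 were called lower at ZT20 and none higher, and 7 of the 8 had lower values there (median log2 difference −0.21). Psmd14 (ENSMUSG00000026914), the metalloprotease that cuts the chain off, was at 327, 383, 341 and 336 TPM at ZT20 and at 473, 579.6 and 542 TPM at ZT8. The groups lay far apart, 1.53-fold in their means, with a log2 difference of −0.61 and a standard error of 0.11 (limma adjusted p = 0.0120). It passed in all 7 fits that left out 1 sample.

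Psmd6 (ENSMUSG00000021737), a structural lid subunit, was nearly constant at ZT20, at 222, 235, 224 and 221 TPM, and was at 304, 332 and 341 TPM at ZT8. The log2 difference was −0.53 ± 0.097 (SE, limma adjusted p = 0.0119). Psmd13 (ENSMUSG00000025487), another structural lid subunit, was at 182, 220.1, 205 and 218 TPM at ZT20 and at 275, 320.1 and 306 TPM at ZT8, a log2 difference of −0.54 (limma adjusted p = 0.0183). Its groups were separate, and its exons overlap those of Sirt3 on the opposite strand. Psmd8, Psmd11, Psmd12 and Psmd7 had differences of −0.28, −0.14, −0.15 and −0.023, and Psmd3 one of 0.40, and these 5 did not pass. For Psmd3 the ZT8 values of 102, 64.7 and 114 TPM straddled the lowest of the ZT20 values, 123, 109, 124 and 126 TPM.

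**Figure D4:**
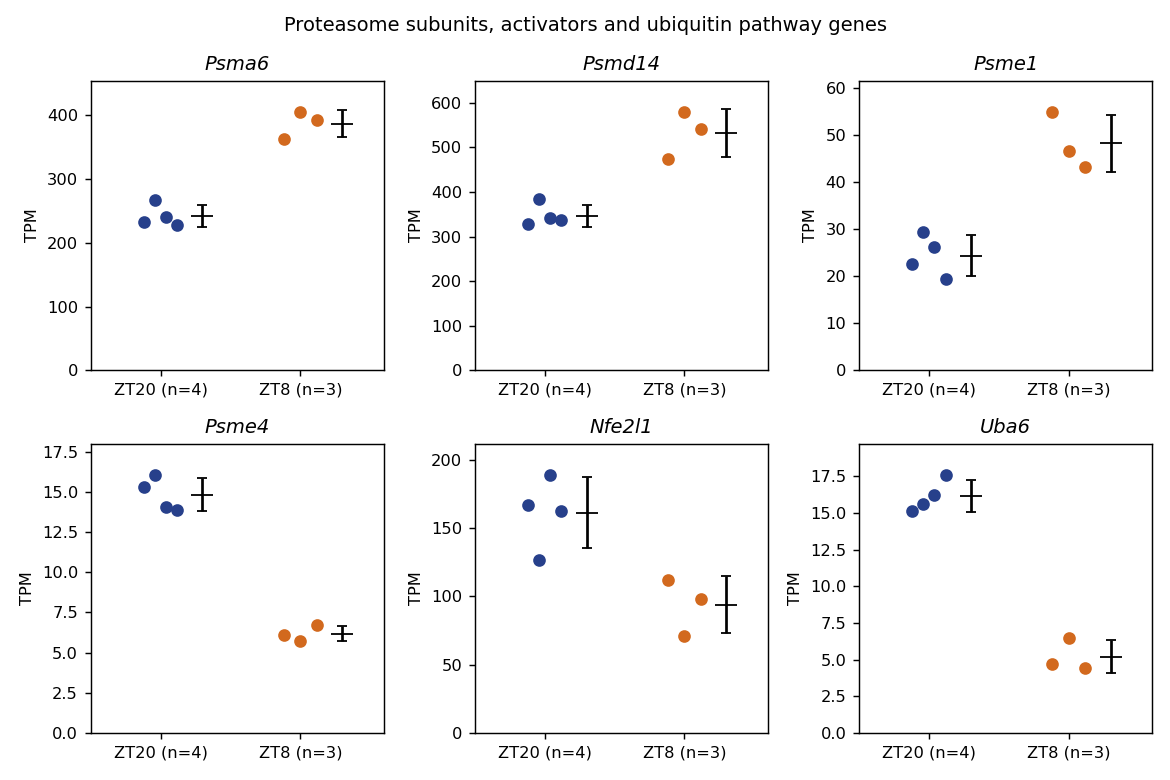
TPM per sample of the core subunit Psma6, the lid protease Psmd14, the activators Psme1 and Psme4, the transcription factor gene Nfe2l1 and the ubiquitin-activating enzyme Uba6, with ZT20 (n = 4) in blue, ZT8 (n = 3) in orange, and mean and SD to the right; each axis starts at 0. In all 6 panels the groups are separate, with the first 3 genes lower and the last 3 higher at ZT20.

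Of the 7 assembly genes 1 was called. Chaperones of the 19S base are Psmd5, Psmd9 and Psmd10, and of these Psmd10 (ENSMUSG00000031429), the oncoprotein gankyrin, was called. It was at 48.2, 52.7, 46.2 and 48.0 TPM at ZT20 and at 62.3, 91.6 and 69.2 TPM at ZT8, with a log2 difference of −0.58 ± 0.15 (SE, limma adjusted p = 0.0357). Its groups were separate, with ZT8 replicate 2 highest. Psmd9, the least abundant of the 3, was at 38.7, 33.2, 29.5 and 32.4 TPM at ZT20 and at 27.7, 43.1 and 41.6 TPM at ZT8. Psmd5 was at 145, 149, 163 and 178 TPM at ZT20 and at 143, 105 and 162 TPM at ZT8. The groups overlapped for both, with log2 differences of −0.14 for Psmd9 and 0.23 for Psmd5, the latter −0.14 after the length and GC correction. The 4 chaperones of the 20S core, Psmg1 to Psmg4, were at means of 23.9 to 56.5 TPM in either group. Their log2 differences were 0.082, −0.045, −0.28 and −0.44, limma called 0 of the 4, and 1 (Psmg4) had an unadjusted p under 0.05. Psmg4 was at 28.4, 29.5, 27.3 and 22.5 TPM at ZT20 and at 34.5, 44.0 and 32.5 TPM at ZT8, and its groups were separate. Those of Psmg1, at 26.3, 27.1, 25.7 and 22.4 TPM at ZT20 and 22.0, 25.6 and 24.1 TPM at ZT8, overlapped. So did those of Psmg3, at 51.9, 49.8, 40.9 and 40.8 TPM at ZT20 and 50.4, 73.1 and 46.1 TPM at ZT8.

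The activators went in both directions. Psme1 (ENSMUSG00000022216), the alpha subunit of the interferon-inducible PA28 cap, was at 22.6, 29.4, 26.2 and 19.3 TPM at ZT20 and at 55.0, 46.6 and 43.2 TPM at ZT8. The level at ZT8 was 1.98-fold that at ZT20 with separate groups, and the log2 difference was −0.97 ± 0.18 (SE, limma adjusted p = 0.0114). It passed in all 7 fits that left out 1 sample, and its exons overlap those of Emc9 on the opposite strand. Psme2 (ENSMUSG00000079197), the partner of Psme1 in that cap, was at 139.7, 193, 141 and 105 TPM at ZT20 and at 226, 216 and 154 TPM at ZT8, where overlapping values gave a log2 difference of −0.47 that did not pass (limma adjusted p = 0.164).

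Psme4 (ENSMUSG00000040850), which encodes the PA200 cap, was the only proteasome gene called higher at ZT20. It was at 15.3, 16.1, 14.1 and 13.9 TPM at ZT20 and at 6.11, 5.74 and 6.70 TPM at ZT8. Values within each group differed little, the groups were 2.40-fold apart, and the log2 difference was 1.14 ± 0.16 (SE, limma adjusted p = 0.00575). After the length and GC correction the difference was 0.58 and did not pass (adjusted p = 0.0656), and at 6491 nt Psme4 has the longest transcript of the tested proteasome genes. Psme3, which forms a nuclear cap, stood at 38.1 TPM in ZT20 replicate 1, while the other ZT20 samples had 103 to 122 TPM, against 98.3, 83.8 and 139 TPM at ZT8. Its log2 difference of −0.26 did not pass and was 0.13 without that replicate. Psmf1, which encodes the inhibitor and adaptor PI31, had a mean of 109 ± 4.66 TPM (SD, n = 4) at ZT20 against 106 ± 7.80 TPM (SD, n = 3), with a difference of 0.044 on the log2 scale.

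The difference between the groups varied with transcript length over the whole table. The median length of the longest transcript was 1895 nt for the tested proteasome genes and 3108 nt for all tested genes, and 41 of the 46 were shorter than that latter median. In the shortest 3 of 10 equal length groups (up to 2117 nt) the median log2 difference was −0.06 over all 4425 genes and −0.38 over the 29 proteasome genes among them. In those groups 7.75% of all genes and 12 of the 29 proteasome genes (41.4%) were called lower. Of the 17 longer proteasome genes 1, Psma3, was called lower, and in the longer length groups 0.407% to 3.59% of all genes were. With the trend of length and GC content taken out of every sample, 11 proteasome genes were called lower and 0 higher, against 5.26% and 3.58% of all genes. All 11 were among the 13 called lower before. Psma7 and Psmb6, with differences of −0.62 and −0.76, were then just above the threshold.

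**Figure D5:**
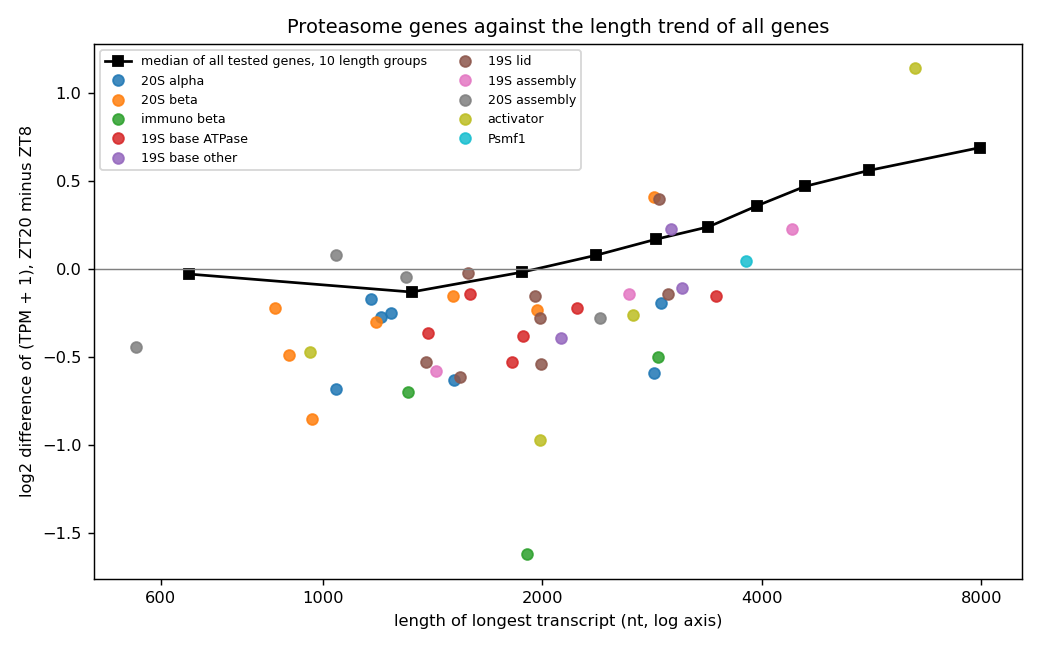
Log2 difference of (TPM + 1), ZT20 minus ZT8, against the length of the longest transcript (log axis) for the 46 tested proteasome genes, coloured by role, with the median of all tested genes in 10 length groups as black squares. The all-gene median rises from −0.13 in the second shortest group to 0.69 in the longest, and most proteasome genes lie below the line at their own length.

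Genes that work with the proteasome but are named otherwise were read from a list of 47, of which 46 were tested. Of these, 8 were called higher (17.4%) and 1 lower (2.17%) at ZT20, near the 12.8% and 3.61% of all tested genes, and the median log2 difference was 0.16. Among 12 particle-associated genes Ecpas and Ube3c were called higher, with log2 differences of 0.82 and 0.62. The ubiquitin receptor Adrm1 differed by −0.28, the lid subunit Sem1 by 0.59 and the core maturation factor Pomp by −0.16, and none of the 3 passed. Adrm1 passed under median-ratio scaling (−0.51, adjusted p = 0.0358) and after the length and GC correction (−0.73, adjusted p = 0.0297). Ecpas was at 27.7 to 36.4 TPM at ZT20 and 14.2 to 24.9 TPM at ZT8. Both Ecpas and Ube3c, which act on proteasomes that are stalled or damaged, missed the threshold with either median-ratio scaling or the length and GC correction.

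Shuttle factors carry ubiquitinated proteins to the particle. Of the 10 listed with their partners, 2 were called higher at ZT20 (median log2 difference 0.44). The shuttle factor Ubqln2 was at 13.3, 19.9, 20.5 and 19.3 TPM at ZT20 and at 7.52, 11.3 and 10.6 TPM at ZT8, so the groups were separate, with ZT20 replicate 1 nearest to the ZT8 samples. Its log2 difference was 0.83 ± 0.22 (SE, limma adjusted p = 0.0346), and 0.58 with the length and GC correction, where it did not pass (adjusted p = 0.168).

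In the ubiquitin group of 9, the activating enzyme Uba6 and the conjugating enzyme Ube2k were called higher and the ubiquitin precursor Rps27a lower. Uba6 was at 15.2 to 17.6 TPM at ZT20 and at 4.73, 6.50 and 4.41 TPM at ZT8, a log2 difference of 1.48 (limma adjusted p = 0.00361) that also passed after the length and GC correction (1.00, adjusted p = 0.0152). Rps27a, which also encodes a ribosomal protein, was at 152 to 201 TPM at ZT20 and 234 to 329.7 TPM at ZT8, a log2 difference of −0.61.

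NRF1, encoded by Nfe2l1, is the transcription factor that raises proteasome subunit genes when proteasome capacity falls short. Nfe2l1 (ENSMUSG00000038615) was at 167, 127, 189 and 163 TPM at ZT20 and at 112, 71.1 and 98.3 TPM at ZT8, so its groups were separate in the direction opposite to most subunits. The log2 difference was 0.79 ± 0.19 (SE, limma adjusted p = 0.0274). Its small MAF partner Mafg differed by 0.87 (limma adjusted p = 0.00495). After the length and GC correction these differences were 0.28 (adjusted p = 0.150) and 0.34 (adjusted p = 0.126). Nfe2l2, which encodes NRF2, differed by 0.16 and did not pass. Of the 7 genes tested in the list for NRF1, Nfe2l1 and Mafg were the 2 called. The other small MAFs, Mafk and Maff, differed by 0.94 and 0.34 and did not pass (limma adjusted p = 0.107 and 0.518).

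Limma called 0 of 8 genes of the interferon and MHC class I pathway, of which the median log2 difference was −0.33. The largest was that of Tap1, the peptide transporter gene next to Psmb9, at 8.08, 18.7, 26.2 and 7.71 TPM at ZT20 and 80.7, 25.3 and 40.2 TPM at ZT8 (log2 difference −1.63, limma adjusted p = 0.0553). As with Psmb8, ZT8 replicate 1 was highest and ZT20 replicates 1 and 4 lowest.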

How the data were processed

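RNA was sequenced from 7 samples of injured mouse dorsal root ganglia, 4 at ZT20 and 3 at ZT8, prepared with a low-input kit per the labels' protocols. Reads were handled with Trim Galore 0.6.6, FastQC 0.11.9 and Salmon 1.6.0 on GRCm39, per the submitters' processing notes. The deposited values are TPM per gene, in a single table of 54309 genes, so the sequencing depth behind each value is unknown and no count test was used. Whether counting used strand is not given in the sources used here. Reads shared with overlapping genes are therefore uncertain for the genes so marked in the text and also for Psma4, Psma5, Psmd1, Psmd3, Psmd9 and Psmg3, whose exons overlap another gene in GENCODE M21.

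The 14800 genes whose mean over all samples reached 1 TPM were tested on log2(TPM + 1) with limma 3.58.1 (R 4.3.3, intensity trend, two-sided, Benjamini-Hochberg adjustment over all tested genes, threshold 0.05). Fold changes on this scale understate those of low genes. In data simulated at this size, 68% of 200 genes changed by 1.5 on the log2 scale were called, and 4.23% of calls were false. The simulated noise was independent between genes, without a length trend or a batch, so these shares need not hold for the real samples. Of the called proteasome genes only Psmb8 differed by more than 1.5. Ratios of subunits were compared with an exact permutation test. Transcript lengths and GC content came from GENCODE M21 for 14745 tested genes, and promoter windows from RefSeq on GRCm38.p6, matched by symbol. Alternatives changed the pseudocount, filter, scaling, covariates, threshold and samples.

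The proteasome genes and the gene lists were chosen with earlier results of these data known. Genes are named by a rule: all proteasome genes are accounted for, and values per sample are given for the catalytic subunits, Psme1, Psme2, called genes and the extremes of each role group. Of the pathway lists, Adrm1, Sem1, Pomp, Nfe2l1 and Nfe2l2 are named whatever their result, with up to 8 called genes of largest difference, of which 1 is not reported here. Ube2k and Tap1 were named after their values were seen. Paaf1 was not analysed here. Samples with the same replicate number are not said to share an animal or batch, and did not all vary together (correlations −0.0141, 0.153 and 0.083), so no pairing was used.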

Additional observations from a re-analysis of the deposited data

Results flagged for a closer look

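In 4 of the 61 results examined for a sample far from the others of its group, a ZT20 value lay so far from the nearest other that its gap passed Dixon's critical share of the group's range. By chance about 1 group in 20 does so, or 3.05 of 61. None of the 4 is among the genes that matched the proteasome symbols. Pomp, the core maturation factor, was highest in ZT20 replicate 2 at 788 TPM, against 651 to 670.04 TPM in the other ZT20 samples. Sem1, the small lid subunit, was highest in ZT20 replicate 1 at 74.2 TPM. Ubqln2, a shuttle factor, was lowest in that same sample at 13.3 TPM. Nfe2l2, which encodes NRF2, was lowest in ZT20 replicate 2 at 33.4 TPM, where the group's highest value was 35.6 TPM.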

How the results depend on the processing

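All 14 called proteasome genes kept their direction in every alternative run. Of the 14 alternatives that left out no single sample, 4 left the differences of the 58 named genes as they were by construction (the looser threshold, both other filters and the fit without an intensity trend). Under the other 10, 561 of 580 differences kept their direction. Where values moved, the cause was not tested.

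With no filter on low values 1178 genes were called (978 higher and 200 lower at ZT20) and 6 proteasome genes (5 lower). Median-ratio scaling gave 1128 higher and 1160 lower genes and 20 lower proteasome genes. Its medians were −0.50 for all proteasome genes, −0.50 for alpha, −0.46 for beta, −0.52 for ATPases, −0.34 for other base, −0.45 for lid, −0.37 for base assembly and −0.39 for core assembly genes. Quantile normalization gave 1023 higher and 814 lower genes, and −0.31 for core assembly. It called 2 proteasome genes higher, as did a minimum mean of 5 TPM, removal of mitochondrially encoded genes and a threshold of 0.10, which called 4079 genes (3098 higher and 981 lower). Correcting length and GC content called 1304 genes (528 higher), with 0 proteasome genes higher and a median of −0.30 for other base genes. Without an intensity trend 332 genes were lower and 8 proteasome genes were called (7 lower). Array weights called 3899 genes (2982 higher and 917 lower).

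With the replicate number as a block 1174 genes were called (891 higher and 283 lower) and 10 proteasome genes. The same-number samples correlated at −0.0141, 0.153 and 0.083, and not every sample correlated best with its own number. The replicate block with the length and GC correction called 520 genes (231 higher and 289 lower), of which 4 were proteasome genes (4 lower and 0 higher), with −0.35 for other base genes. With the marker score as covariate limma called 0 genes (0 higher and 0 lower) and 0 proteasome genes, at unadjusted p under 0.05 for 2434 and 12, and the medians were −0.53 for alpha and −0.50 for base assembly genes. Without ZT20 replicates 3 and 4 limma called 0 genes and 0 proteasome genes in either direction, at unadjusted p under 0.05 for 2378 and 14.

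Leaving out 1 sample at a time gave 723 to 3047 genes (620 to 2375 higher and 103 to 672 lower) and 4 to 14 proteasome genes (3 to 13 lower and 1 higher). The median for base assembly genes then ran from −0.34 to −0.028, and the ratio difference of Psmb9 over Psmb6 from −0.19 to 0.81.

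Genes that were not called changed sign as follows. Under median-ratio scaling Nfe2l2 was −0.061, Psmd2 −0.0057, Psmf1 −0.19 and Psmg1 −0.14. Under quantile normalization Nfe2l2 was −0.041, Psmd7 0.0089 and Psmg1 −0.16. The length and GC correction gave −0.14 for Psmd5, 0.016 for Psmd7, −0.28 for Psmf1 and 0.0039 for Psmg2, and with the block −0.17 for Psmd5, 0.011 for Psmd7 and −0.28 for Psmf1. The marker score gave 0.15 for Psme3 and −0.076 for Psmg1, and array weights −0.013 for Nfe2l2. Without both ZT20 replicates Psmb3 was 0.018 and Psmd7 0.0076. Over the fits without 1 sample, signs changed within these ranges. Nfe2l2 ran from −0.071 to 0.29 (lowest without ZT8 replicate 2), Psme3 from −0.42 to 0.13 (highest without ZT20 replicate 1) and Psmf1 from −0.018 to 0.082 (lowest without ZT8 replicate 1). The highest values came without ZT8 replicate 3 for Psmd1 (−0.21 to 0.0014), Psmd12 (−0.33 to 0.0065), Psmd7 (−0.19 to 0.16) and Psmg2 (−0.13 to 0.0023). The depth is unknown, so no interval for counting error can be given.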

Other observations

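Close copies of proteasome genes were read for their possible share of reads. Psme2b, a gene closely related to Psme2, was at 1.51 to 2.22 TPM at ZT20 and at 7.74, 1.75 and 2.52 TPM at ZT8, overlapping between the groups (log2 difference −0.60, limma adjusted p = 0.304). The processed pseudogenes Psmb5-ps, Psmb6-ps, Psmb6-ps2 and Psmb7-ps2 reached at most 0.577 TPM in any sample, in ZT8 replicate 2 for Psmb6-ps, far under the levels of their parent genes.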
